A study of Rattus norvegicus with 12 samples.

Results

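The connexins and pannexins examined here were 9 genes, namely Gja1, Gjb6, Gjb2, Gjb1, Gjc1, Gjc3, Gjd2, Panx1 and Panx2. They were chosen because the study's paper describes boldine as a blocker of open connexin hemichannels on astrocytes. That paper names Cx43, the product of Gja1, and does not report block of the other channels. Of these 9 members, 8 had a row in the deposited table of 17494 genes, and Gjc3 was not analysed here. RNA was sequenced from the brain of 12 wild-type male Long Evans rats, which the study's methods describe as hippocampal tissue, with 1 library per rat. Every rat had received 3 low-level blasts, 1 per day, at 10 weeks of age. The 6 blast-control rats ate standard chow and the 6 blast-boldine rats ate the same chow with boldine, an alkaloid of the boldo tree, from week 2 after blast until sacrifice at 29 weeks after blast. Rats without blast exposure were not analysed here, so the comparison concerns the diet in blast-exposed animals only.

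Connexins are the subunits of gap junctions. A ring of connexins forms a hemichannel in the membrane of one cell, and hemichannels of neighbouring cells dock to form a gap junction. Undocked hemichannels can open to the extracellular space and release ATP and glutamate, as can channels formed by pannexins, which rarely form junctions between cells. In the brain, astrocytes use mainly the products of Gja1 (Cx43) and Gjb6 (Cx30), leptomeningeal cells and some astrocytes also express Gjb2 (Cx26), oligodendrocytes use that of Gjb1 (Cx32), and neurons use that of Gjd2 (Cx36). The reported block by boldine concerns channel proteins, whereas the values reported here are mRNA levels.

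The 3 astrocytic and leptomeningeal members are shown by their promoters, because Gjb2 and Gjb6 lie side by side in the genome and Gja1 is the most abundant member. The windows come from RefSeq on GRCr8, a different build from the mRatBN7.2 used for the counts, and run from 250 bases before to 50 bases after an annotated transcription start. They are Gja1 at chr20:36302314-36302613 on the plus strand, Gjb6 at chr15:35410089-35410388 on the minus strand and Gjb2 at chr15:35381904-35382203 on the minus strand. Gjb6 has 2 annotated starts, and its second window (chr15:35408913-35409212) is not printed. Capitals mark matches on either strand to the TATA box letters TATAAA, to the GC box letters GGGCGG and to a further run of letters, TTAAAA, which was added to the search after these windows had been read.
Gja1: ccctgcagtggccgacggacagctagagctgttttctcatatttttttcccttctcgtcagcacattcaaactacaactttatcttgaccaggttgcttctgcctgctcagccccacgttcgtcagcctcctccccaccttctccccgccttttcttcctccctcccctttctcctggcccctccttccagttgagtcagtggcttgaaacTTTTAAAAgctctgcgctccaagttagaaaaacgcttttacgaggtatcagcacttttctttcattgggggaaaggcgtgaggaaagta
Gjb6: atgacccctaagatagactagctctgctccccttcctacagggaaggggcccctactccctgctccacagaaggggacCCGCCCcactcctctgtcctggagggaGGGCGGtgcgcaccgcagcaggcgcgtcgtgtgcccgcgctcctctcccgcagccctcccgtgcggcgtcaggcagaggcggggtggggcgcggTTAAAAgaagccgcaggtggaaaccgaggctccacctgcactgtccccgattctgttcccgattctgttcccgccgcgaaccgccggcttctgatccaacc
Gjb2: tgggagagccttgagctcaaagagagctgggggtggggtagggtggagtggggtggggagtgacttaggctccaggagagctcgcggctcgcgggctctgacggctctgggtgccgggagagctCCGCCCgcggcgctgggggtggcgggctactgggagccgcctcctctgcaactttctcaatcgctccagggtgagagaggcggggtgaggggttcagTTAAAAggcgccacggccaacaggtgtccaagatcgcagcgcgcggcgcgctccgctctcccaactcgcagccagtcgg
The 3 windows shown held TTAAAA, which begins 29 bases before the start in Gjb2 and 51 bases before it in Gjb6, whereas Gja1 held overlapping matches on both strands. GGGCGG was found once in Gjb2, in 2 places in Gjb6 and not in Gja1, and TATAAA was in none of the 3. The second Gjb6 window held no TTAAAA and GGGCGG once, so these matches depend on the start chosen. Among all 33469 RefSeq promoter windows, 21.0% held TTAAAA, 33.1% held GGGCGG and 14.2% held TATAAA. The printed Gjb2 and Gjb6 windows each held 25 CG dinucleotides, against 10 in Gja1, 5 in the second Gjb6 window and a median of 7 over all windows. These matches describe the letters of the windows and do not show that a factor binds there.

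On mRatBN7.2, Gjb2 (chromosome 15, 31260391 to 31266367) and Gjb6 (chromosome 15, 31284565 to 31293342) were annotated on the minus strand with 18197 bases between them. Gja1 was annotated on chromosome 20 (35756035 to 35768478) and Gjb1 on chromosome X (66501848 to 66509778), both on the plus strand. The pannexin genes lie apart, Panx1 on chromosome 8 (11851178 to 11889774) and Panx2 on chromosome 7 (120139294 to 120149824).

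Library depth limited which rats could be compared. Total counts ranged from 10148474 to 40850106 in 11 libraries, but blast-control rat 6 held only 74008. In that library 1 count already stood for a large share of the normalized level, and 3 counts, taken as the floor of detection, corresponded to 47.5 CPM (counts scaled to library size with TMM normalization), against at most 0.307 CPM in the other 11. Gja1 had 45 counts and Panx2 had 6 counts in rat 6, and the other 6 members with a row were at 0. The treatment differences are therefore given with rat 6 and without it. The library names carry suffixes that each occur on 2 libraries, and of the 4 ways to split them into sets the one that best matched the first principal component was used (rats 1, 7, 9, 20, 32 and 35 as the first set, rats 4, 5, 6, 12, 17 and 19 as the second). That component held 76.1% of the variance, and the sets accounted for 95.4% of it. This split was picked from these data, each set held 3 rats of each treatment, and what the sets stand for was not given in the sources used here. Markers of hippocampal neurons summed to between 1593 and 2056 CPM in the 12 libraries, although 1 of these markers had 0 counts in rat 6.

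Gja1 was the most abundant member. Per unit of transcript length, its level averaged 366 TPM ± 90.4 (SD, n = 11 rats without rat 6) and was above that of Panx2 in all 11 rats. Panx2, the pannexin enriched in neurons, averaged 113 TPM ± 31.7 and Gjb6 averaged 78.5 TPM ± 30.6. These neighbours could not be ordered, since Panx2 was the higher in 6 of 11 rats. Gjb1 (29.6 TPM ± 16), Panx1 (17.9 TPM ± 1.22), Gjb2 (16 TPM ± 5.2) and Gjd2 (15.5 TPM ± 2.52) followed, with no pair of neighbours among them ordered alike in every rat. Gjc1 (Cx45) was the lowest member at 4.75 TPM ± 3.12. Of 14 further connexins and pannexins, 13 had a row and 4 passed the filter on low counts, among them Gja6 and Gja4, which averaged 5.46 and 1.39 TPM.

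**Figure D1:**
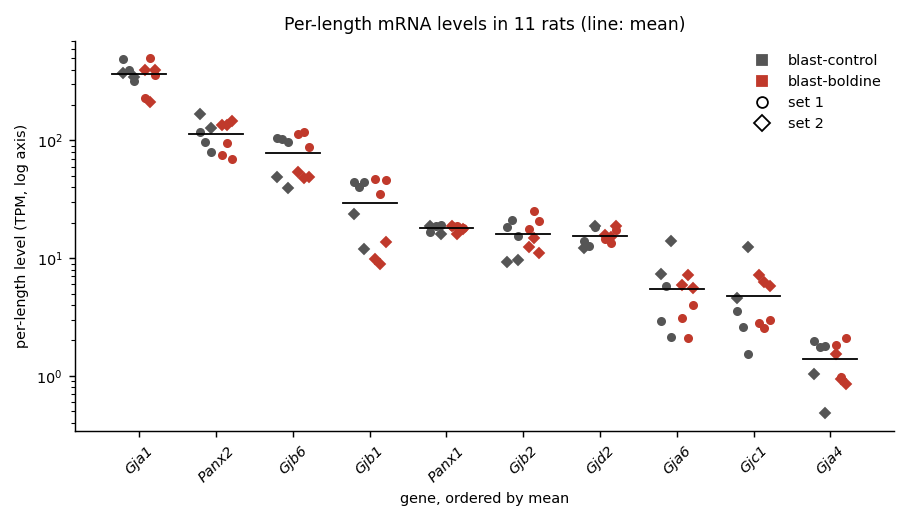
Per-length mRNA level (TPM, log axis) of the 8 members and 2 further family genes in 11 rats, ordered by mean (black line); grey is blast-control, red is blast-boldine, circles are the first library set and diamonds the second. Gja1 stands above the rest at a mean of 366 TPM, and Panx1 has a narrow spread (SD 1.22 TPM).

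Gja1 made up 63.2% ± 6.82 (SD, n = 11) of the summed per-length level of all connexins with a row. Its share was lowest in blast-boldine rat 20 at 47.8% and next lowest in blast-boldine rat 17 at 57.0%. Gjb6 and Gjb2 together contributed 16.5% ± 5.50, and Gjb1 contributed 5.08% ± 2.74. The mean share of Gja1 was 62.0% ± 8.76 in 6 blast-boldine rats and 64.5% ± 4.01 in 5 blast-control rats, a difference smaller than either spread.

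**Figure D2:**
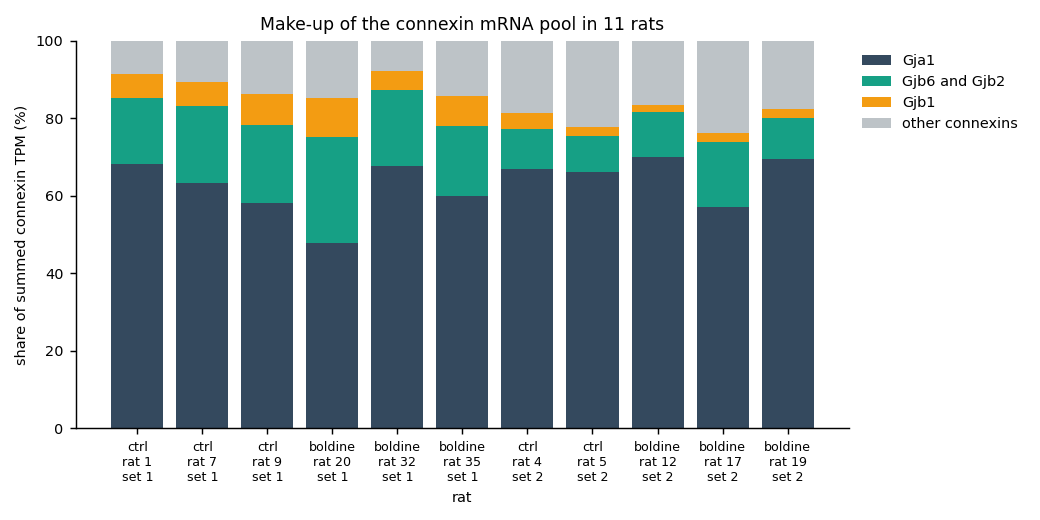
Share of the summed connexin TPM (percent) held by Gja1, by Gjb6 with Gjb2, by Gjb1 and by the other connexins in each of 11 rats, grouped by library set and treatment. Gja1 is the tallest segment in every rat and is shortest in blast-boldine rat 20 (47.8%).

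None of the 8 members passed the test for a difference between blast-boldine and blast-control rats. In edgeR's quasi-likelihood test on all 12 libraries, 0 of 12325 genes had an adjusted p under 0.05 (0.0%), and 132 genes (1.07%) had an unadjusted p under 0.05, none of them a member. DESeq2 also gave 0 genes at an adjusted p under 0.05, with 85 (0.542%) at an unadjusted p under 0.05. Without rat 6, edgeR gave 175 genes (1.4%) at an unadjusted p under 0.05, again with no member among them. In the fit of 12 libraries, 4 members were higher and 4 lower in blast-boldine rats, and their median log2 fold change was −0.01 against 0.00 over all genes. Without rat 6, 3 members were higher and 5 lower, with a median of −0.05 against −0.00 over all genes. In bulk tissue, fewer cells of a type and less RNA per cell cannot be told apart, and this holds for each level given here.

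The astrocyte connexin Gja1 was measured with the greatest depth. It ranged from 415 CPM through a median of 482 CPM to 713 CPM in blast-control rats and from 265 CPM through 466 CPM to 598 CPM in blast-boldine rats. The groups overlapped, and the low end belonged to blast-boldine rats 17 (265 CPM) and 20 (288 CPM), which came from different library sets. The highest control was the shallow rat 6, whose 45 counts gave an exact 95% Poisson interval, covering counting error only, of 520 CPM to 954 CPM. The log2 fold change was −0.24 (SE 0.21; 95% interval −0.70 to 0.22; edgeR adjusted p = 1.0), and −0.15 (95% interval −0.60 to 0.30) without rat 6. By exact permutation of the rats, p was 0.238 for 12 libraries and 0.407 for 11. Astrocyte markers did not share the low values of rat 20, in which they averaged 8.75 on the log2 CPM scale within a range of 8.43 to 8.84 over 11 rats, although the lowest value was that of rat 17. Relative to these markers, Gja1 differed by −0.12 log2 units between treatments (11 rats, exact permutation p = 0.600). Gja1 did not follow these markers between rats, which limits what this scaling shows. By the correlation described below for Gjb2 it stood at 0.04 with them, within a range of −0.36 (interneuron) to 0.49 (endothelial) over the marker lists.

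Gjb6, the other main astrocyte connexin, ranged from 27.2 CPM to 68.1 CPM in the 5 deeper blast-control libraries and from 32.7 CPM through a median of 48.2 CPM to 78.4 CPM in blast-boldine rats. Its values fell into separate ranges by library set rather than by treatment. The log2 fold change was 0.08 (SE 0.35; edgeR adjusted p = 1.0) and became 0.01 without rat 6. The sign was not stable, since leaving out single rats moved the estimate between −0.06 and 0.20.

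Gjb2 was the only member with an unadjusted edgeR p under 0.05 in any fit with the library set as a covariate, and it had none without that covariate. Among blast-control rats it measured 16.4, 9.48, 9.42, 19.6 and 15.4 CPM in rats 1, 4, 5, 7 and 9, and 0 counts were found in rat 6. Among blast-boldine rats it measured 12.1, 14.4, 10.6, 17.2, 23.6 and 19.8 CPM in rats 12, 17, 19, 20, 32 and 35. The groups overlapped over all rats, but in the second set the 3 blast-boldine rats were above both deep blast-control rats, as was the case for 11% of all genes. In the first set the groups overlapped.

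Over all 12 libraries the log2 fold change of Gjb2 was 0.23 (SE 0.27; edgeR adjusted p = 1.0), and without rat 6 it was 0.20 (95% interval −0.36 to 0.76). Exact permutation over all assignments gave p = 0.229 for 12 libraries and p = 0.459 for 11, where 2.28% and 2.06% of all genes had p under 0.05. With the library set as a covariate the log2 fold change was 0.30 (SE 0.13), with an unadjusted edgeR p = 0.0333 (adjusted p = 1.0) beside an exact permutation p = 0.02 within sets, in which rat 6 counted at 0. The shares of all genes under 0.05 were 3.85% and 5.18%. Without rat 6 and with the set as a covariate it was 0.29 (SE 0.12), with an unadjusted edgeR p = 0.0320 (adjusted p = 0.898) beside an exact permutation p = 0.205 within sets. Here the shares of all genes were 5.35% and 5.12%. A second exact permutation statistic within sets, the mean of the differences of the 2 sets, gave p = 0.035 without rat 6 (6.03% of all genes were under 0.05), but it was chosen after the p of 0.205 had been seen. The exact p-values under 0.05 thus came either with rat 6 at 0 counts or from the statistic chosen afterwards. In the exact permutations with rat 6, the treatment difference in mean log2 CPM was 1.35, against 0.22 without it. The prior count set rat 6 at −3.07 log2 CPM. At the mean level of the other blast-control rats, rat 6 would have held 0.887 counts of Gjb2, under the floor of 3 counts. The exact permutation p-values with rat 6 therefore cannot decide whether Gjb2 differed between treatments. The planned exact permutations without rat 6 gave p = 0.459 over all assignments and p = 0.205 within sets. No value for Gjb2 passed adjustment over all genes.

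Gjb2 was ordered between rats much as markers of leptomeningeal fibroblasts were. Within the first set, rat 32 was highest and rat 9 lowest for both Gjb2 and the mean of the 9 markers, and within the second set rat 17 was highest for both. After the means of each treatment within each set were subtracted, the correlation of Gjb2 with the mean of these markers was 0.85 over 11 rats. It is given as a description, because subtracting these means leaves fewer independent values than rats. The 2 deep blast-control rats of the second set then lie equally far on opposite sides of 0. The same correlation of Gjb2 was 0.82 for choroid plexus, 0.64 for ependymal and 0.61 for endothelial markers, −0.14 for astrocyte markers and −0.77 for interneuron markers. Values of this size or larger occurred for other members, such as 0.94 for Panx1 with astrocyte markers and −0.94 for Gjc1 with neuron markers. Of the 9 leptomeningeal markers, 8 were fitted higher in blast-boldine rats with a median log2 fold change of 0.61. An unadjusted p under 0.05 in edgeR was found for 3 of them (Slc6a13, Aldh1a2 and Slc22a6), named after their p had been seen. Of all genes, 1.07% had such a p, and none of the 9 markers passed adjustment. Their summed level ranged from 84.2 CPM to 352 CPM in blast-boldine rats and from 61.4 CPM to 278 CPM in blast-control rats, and none of the 9 was at 0 in all 11 deeper libraries. Relative to these markers Gjb2 differed by −0.43 log2 units (11 rats, exact permutation p = 0.117), and relative to astrocyte markers by 0.29 (exact permutation p = 0.249). Choroid plexus markers summed to between 678 CPM and 1306 CPM in blast-control rats 1 and 7 and blast-boldine rats 12, 17 and 32. In the other 6 deeper libraries, blast-control rats 4, 5 and 9 and blast-boldine rats 19, 20 and 35, they summed to between 9.08 CPM and 51.1 CPM. The blast-boldine median of 489 CPM lay between these ranges, where no rat fell. The median of the 5 deeper blast-control libraries was 15.4 CPM. The part of leptomeningeal tissue and of choroid plexus in the Gjb2 values was not tested.

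**Figure D3:**
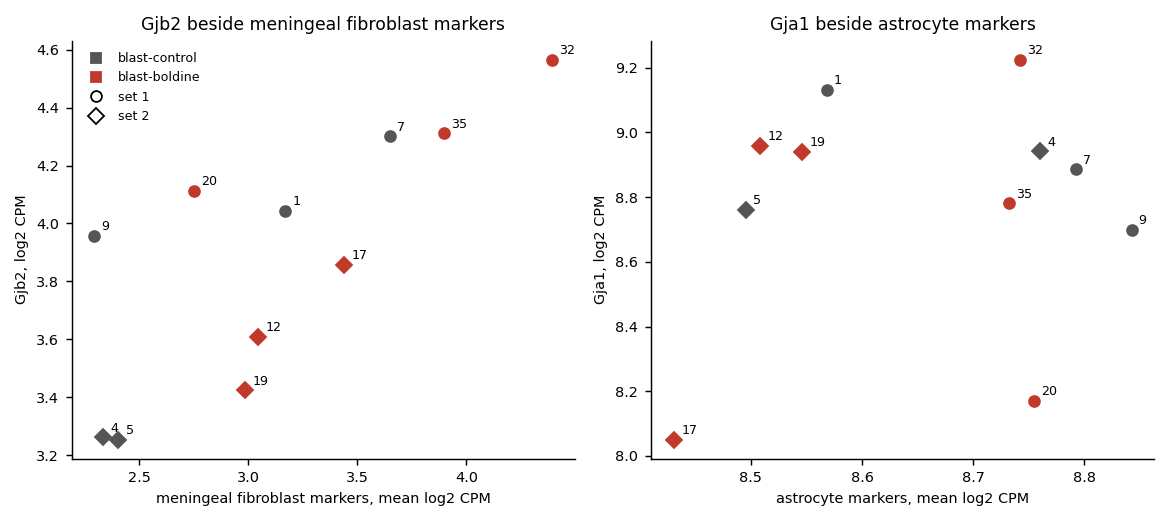
Left, Gjb2 (log2 CPM) against the mean log2 CPM of 9 leptomeningeal fibroblast markers; right, Gja1 against 10 astrocyte markers, for 11 rats labelled by rat number, with colour for treatment and shape for library set. Within the sets the order of Gjb2 follows that of the leptomeningeal markers except between rats 1 and 20 and between rats 4 and 5, and rats 17 and 20 are low for Gja1.

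Gjb1, the oligodendrocyte connexin Cx32, showed a large difference between library sets. It averaged 25.7 CPM ± 3.28 (SD, n = 6) in the first set and 8.52 CPM ± 3.91 (n = 5, without rat 6) in the second. Between treatments, the log2 fold change was −0.25 (SE 0.48; 95% interval −1.28 to 0.78; edgeR adjusted p = 1.0), and −0.29 (SE 0.49) without rat 6. The treatment difference of Gjb1 was −0.76 log2 units further down in the second set than in the first, which did not pass the interaction test in edgeR (adjusted p = 0.881).

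Gjd2 is a connexin of neurons, and Gjc1 was compared with neuron markers here. Gjd2, which forms electrical synapses between interneurons, ranged from 9.01 CPM to 14.4 CPM in the 5 deeper blast-control libraries and from 9.69 CPM to 14.2 CPM in blast-boldine rats, and its log2 fold change was 0.08 (SE 0.20; edgeR adjusted p = 1.0) with rat 6 and 0.05 (SE 0.17) without it. Gjc1 was low, with 12 to 94 counts in the 11 deeper libraries. By the correlation described for Gjb2, Gjc1 stood at −0.94 with the mean of neuron markers over 11 rats, and what this stands for was not tested. Its log2 fold change of −0.08 (SE 0.48), or −0.09 (SE 0.51) without rat 6, rested on blast-control rat 5, in which it reached 7.99 CPM against at most 4.57 CPM elsewhere, and became 0.59 without that rat, which also did not pass the test.

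The pannexins differed from each other in spread. Panx1, the widely expressed pannexin that releases ATP, stayed between 14.9 CPM and 19.5 CPM in the 11 deeper libraries, and 5 of 6 blast-boldine rats fell between 17.2 CPM and 18.4 CPM. Its log2 fold change without rat 6 was −0.00 with a 95% interval of −0.24 to 0.23, the narrowest among the members, which leaves changes in fold outside 0.849 to 1.17 beyond the interval. Panx2 ranged from 111 CPM to 235 CPM in the 5 deeper blast-control libraries (95 CPM, from 6 counts, in rat 6) and from 92.0 CPM to 194 CPM in blast-boldine rats, with a log2 fold change of −0.06 (SE 0.25; edgeR adjusted p = 1.0), and −0.11 (SE 0.25) without rat 6. Its estimate was −0.20 (SE 0.10; edgeR adjusted p = 0.898) without rat 6 and with the set as a covariate.

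**Figure D4:**
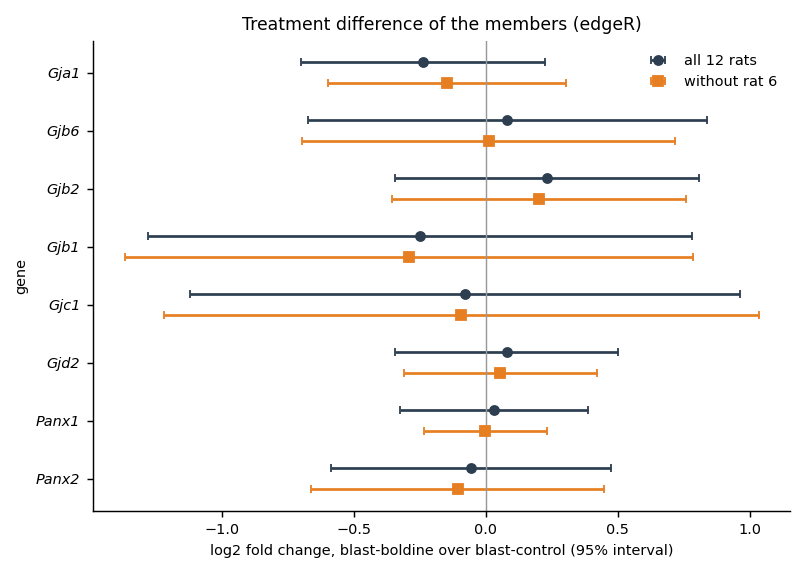
Log2 fold change of each member, blast-boldine over blast-control, with 95% intervals from edgeR for all 12 rats (circles) and for 11 rats without rat 6 (squares). Every interval includes 0, the narrowest being that of Panx1 without rat 6 and the widest those of Gjb1 and Gjc1.

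The members were also set side by side by library set, as a description. For 5 of 8 members (Gjb6, Gjb2, Gjb1, Gjc1 and Panx2) the 2 sets did not overlap over 11 rats, where 48.6% of all genes did the same. Gjb6 averaged 69.4 CPM ± 7.53 in the first set and 33.1 CPM ± 3.71 in the second, and Gjb2 averaged 18.6 CPM ± 2.96 and 11.2 CPM ± 2.08. Panx2 lay the other way, at 116 CPM ± 18.1 and 193 CPM ± 25.3, as did Gjc1 at 1.64 CPM ± 0.365 and 4.65 CPM ± 1.94. Gja1, Gjd2 and Panx1 overlapped between the sets. Marker lists moved with the sets too, since the mean log2 CPM of microglial markers was 1.12 lower and that of endothelial markers 0.81 higher in the second set. Among the lists compared with these 5 members, oligodendrocyte markers were 0.56 lower, leptomeningeal markers 0.52 lower and astrocyte markers 0.19 lower there. Neuron markers were 0.48 higher. The part of these cell types in the member values was not tested.

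**Figure D5:**
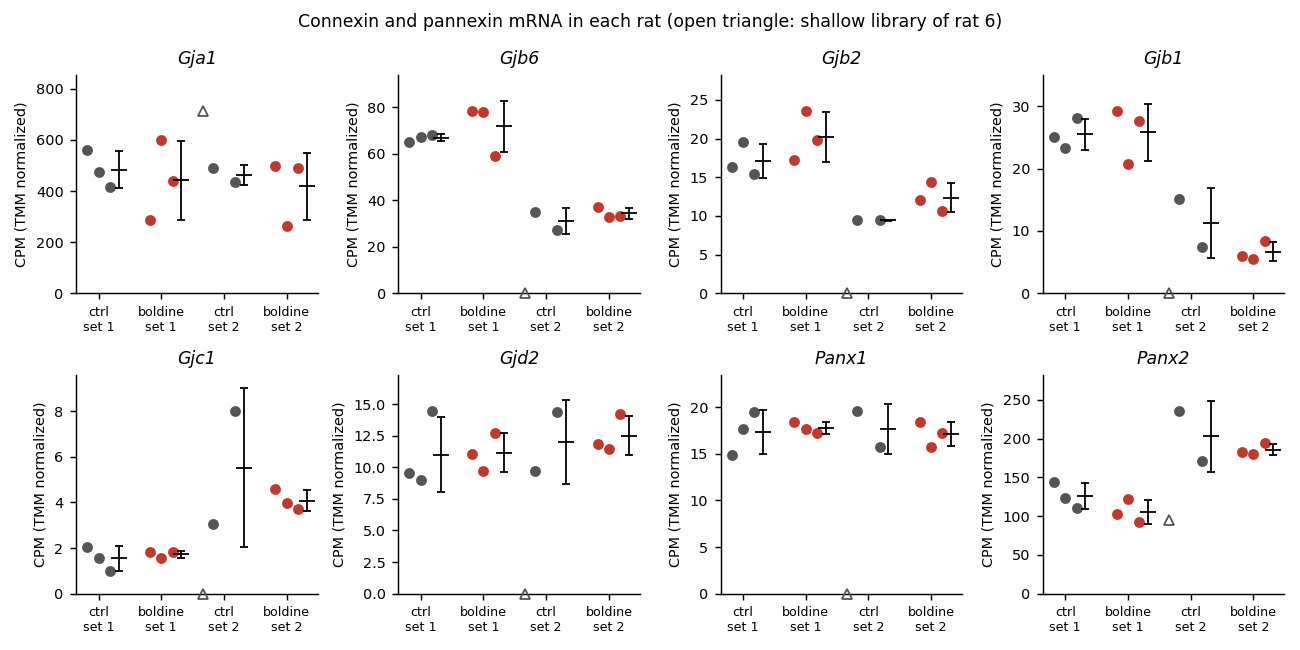
TMM-normalized CPM of each member in every rat (points), by library set and treatment, with mean ± SD beside the points and without the shallow blast-control rat 6 (open triangle). Gjb6, Gjb2 and Gjb1 are higher in the first set and Gjc1 and Panx2 in the second, while treated and control rats overlap over all rats in every panel.

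Genes that act with these channels also gave no call. Of 19 tested connexin partners and regulators, including kinases, scaffolds and cadherins, 0 had an unadjusted p under 0.05 in edgeR, against 1.07% of all genes, and 11 were fitted higher and 8 lower, which became 7 higher and 12 lower without rat 6. The smallest p-values were those of Dbn1 (drebrin, an actin-binding partner of Cx43; log2 fold change −0.87, SE 0.59, but −0.06, SE 0.40, without rat 6) and Ocln (occludin, of tight junctions; 0.46, SE 0.40, and 0.43, SE 0.42, without rat 6). Of 5 tested genes of other large-pore channels, none had an unadjusted p under 0.05, and 4 were fitted higher and 1 lower. Without rat 6, 6 of these genes were tested, with 1 fitted higher and 5 lower. By p in the fit of 12 libraries, Lrrc8c (0.24, SE 0.40) and Calhm2 (−0.18, SE 0.31) came first, at 0.23 and −0.21 without rat 6.

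Members were also compared with all 10943 genes that had at least 20 counts in each of 11 libraries, by the correlation of log2 CPM after the means of each treatment within each set were subtracted. With so many genes and 11 rats, high values are expected for some gene whatever the member, and they are given as a description. The genes most like Gja1 were Vezf1 (0.95), Foxj3 (0.93) and Bmpr2 (0.92), and those most like Gjb6 were Timp4, Adra2a and Rxrg (0.98, 0.98 and 0.97). Gjb2 was most like Akna (0.96), Thbs1 (0.93) and the endothelial gene Vwf (0.93). Its correlation with its neighbour Gjb6 was −0.01 by this measure, which leaves out the difference between sets that both genes share in direction. For Gjb1 the genes were Smim20, Lrrc24 and Rpl32, for Gjc1 Pdzrn4, Ssbp1 and Swap70, for Gjd2 Nup155, Lnpk and Tmem183a, for Panx1 Borcs7, Alg14 and Fbxw11, and for Panx2 Wipf2, Bcl9 and Nisch, with correlations between 0.96 and 0.99.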

How the data were processed

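Per the labels and the study's methods, the authors aligned reads with STAR 2.7.11b to mRatBN7.2 and counted exon reads per gene by strand with featureCounts (Subread 2.0.1); the deposited values are raw counts. Counts were analysed with edgeR 4.0.16 (TMM, filterByExpr with a minimum count of 10, quasi-likelihood test, Benjamini-Hochberg adjustment) in R 4.3.3, with treatment as the only term. DESeq2 1.42.0, limma-voom (limma 3.58.1), other scalings, no filter, the library set and leaving out each rat were alternatives. TPM was computed from counts and exon lengths. Exact two-sided permutation tests used mean log2 CPM (prior count 2), with 924 assignments of 12 rats (smallest p 0.00216) and 400 within sets (smallest p 0.005), or 462 and 200 without rat 6. With unequal numbers in the sets, the difference in group means carries the set difference; the mean of the 2 set differences was therefore added, after the p-values of the planned statistic had been seen, and both are reported. Named genes were the members, tested family genes (2 of which are not reported here), the 2 smallest p-values per pathway list, the 3 most alike genes per member and markers that move with a member, of which the 3 named were chosen by their p after it was seen. The members and lists were chosen with earlier results of these data known. The scripts were tested on simulated data.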

Additional observations from a re-analysis of the deposited data

Results flagged for a closer look

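Among the 24 sets of 6 values examined for a sample far from the others, 5 were flagged, and chance flags about 1 in 20 groups. All 5 were the shallow blast-control rat 6, in which the gene had 0 counts among 74008. The gap from rat 6 to the nearest other blast-control rat, as a share of the range of log2 CPM, was 0.856 for Gjb6, 0.858 for Gjb2, 0.757 for Gjb1, 0.903 for Gjd2 and 0.947 for Panx1. At the mean level of the other 5 blast-control rats, rat 6 would have held 3.32 counts of Gjb6, 0.887 of Gjb2, 1.25 of Gjb1, 0.720 of Gjd2 and 1.10 of Panx1. All but the value for Gjb6 were under the floor of 3 counts.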

How the results depend on the processing

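No adjusted p-value of a member fell under 0.05 in any edgeR, DESeq2 or limma-voom fit. Leaving out 1 rat at a time gave log2 fold changes of −0.062 to 0.20 for Gjb6, −0.30 to 0.59 for Gjc1, −0.010 to 0.078 for Panx1 and −0.14 to 0.13 for Panx2, which changed sign, and of −0.33 to −0.11 for Gja1, 0.09 to 0.39 for Gjb2, −0.49 to −0.08 for Gjb1 and 0.01 to 0.18 for Gjd2, which did not. Limma-voom gave 0.10 for Gjc1, and Panx1 was −0.00 without rat 6. The number of genes with an unadjusted p under 0.05, 132 in the reported fit, was 85 to 214 when 1 rat was left out, 474 with the library set as a covariate, 670 with the set and without rat 6, 254 without the filter, 85 with DESeq2 and 279 with DESeq2 without rat 6. With the set as a covariate 1 member, Gjb2, had an unadjusted p under 0.05, also without rat 6. With rat 6 kept, the difference relative to markers changed sign, to 0.17 for Gjb2 and 0.28 for Gjb6 (leptomeningeal), 0.60 for Gjb1 (oligodendrocyte), and 1.30 for Panx1 and 0.088 for Panx2 (neuron). Rat 6 held 0 counts of Gjb2, Gjb6, Gjb1 and Panx1, which the prior count sets at −3.07 log2 CPM, and 6 counts of Panx2. Under the added statistic, the mean of the 2 set differences, Gjb2 relative to astrocyte markers was 0.36 (exact permutation p = 0.045, against 0.135 for the planned statistic within sets) and Panx1 relative to neuron markers was 0.042; this statistic was chosen after seeing the data. The cause was not tested. No paired analysis was possible because the groups share no replicate numbers.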
